A study of Mus musculus with 4 samples.

Results

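Interferon-stimulated genes were followed across the cell classes of the mouse primary motor cortex. The set was a list of 38 gene symbols, and 36 of them were matched among 32285 genes counted. The list was taken by name, but it was chosen with earlier results of these data known. Mx1 and Mx2 were not matched by symbol and were not analysed here. RNA of single nuclei was measured in 4 libraries with 1 library per group, all from C57BL/6N mice. The ad lib sleep library came from mice that were not sleep deprived, and the sleep deprivation library from mice kept awake by gentle handling. The other 2 libraries came from cortex that received, by local administration, an adeno-associated virus of serotype 8 (AAV8) carrying FLAG-tagged SIK3, a protein kinase, behind the hSyn promoter. That promoter is of the human synapsin gene and drives expression in neurons. The first virus carried wild-type SIK3 (WT) and the other a SIK3 that lacks exon 13 (Ex13del), which the series describes as a gain-of-function mutant. No library of an empty vector or of injection alone was analysed here. Time after injection, dose, age and the number of animals behind a library are not given in the sources used here.

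Interferons are secreted proteins that cells release when they sense viral nucleic acid or other danger. Type I interferons bind the receptor made of Ifnar1 and Ifnar2, whose kinases Jak1 and Tyk2 phosphorylate STAT proteins. STAT2 then joins IRF9 and enters the nucleus, where the complex binds the interferon-stimulated response element (ISRE) in promoters. The genes it switches on include sensors of viral RNA, enzymes that block viral replication, and feedback inhibitors such as Usp18. Microglia and brain endothelium are known to answer interferon strongly, and neurons can answer it too.

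Between 5302 and 8242 nuclei per library were kept of 5944 to 9438 barcodes, and the libraries held 43655557 to 54070503 unique molecular identifiers (UMIs, each a counted molecule). Pairs of libraries shared 9 to 16 barcodes. Nuclei were clustered without the members and without the vector transcript, and named from marker genes, so each class name stands for nuclei that resemble that type. Excitatory neuron-like nuclei, in clusters of layers 2/3 to 6b, were the largest named class in every library (35.9% to 45.9% of kept nuclei). Striatal projection neuron-like nuclei made up 3.51% to 7.55%, although the labels name cortex. Nuclei that stayed unnamed made up 10.2% of the ad lib sleep library and 30.4% of the sleep deprivation library, with 13.7% and 14.4% in the WT and Ex13del libraries. The vector transcript (feature WPRE_pA) had 0 UMIs in kept nuclei of both uninjected libraries, and 2815 and 4803 in the WT and Ex13del libraries.

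A level is the UMI sum of 1 class in 1 library per 1000000 UMIs of that class there (CPM). Levels are given in the order ad lib sleep, sleep deprivation, WT vector and Ex13del vector. Intervals are exact at 95% and cover counting error only. With 1 library per group there is no replicate error, no difference between groups could be tested, and an effect of the treatment cannot be told apart from a difference between the animals or preparations. A gene counted as measured in a comparison when it had at least 50 UMIs in the 2 groups together, as higher at a CPM ratio of at least 1.5, and as lower at the inverse. The same rule over all genes gives the background share beside each count. These words describe the libraries compared, not the conditions.

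The summed level of the members was lowest in neurons and highest in vascular cells and microglia. Endothelial cells stood at 1512, 1332, 1398 and 1529 CPM. Pericytes and smooth muscle stood at 1097, 1172, 1167 and 1317 CPM. In both classes of the vessel wall the AAV libraries had Ex13del over WT ratios close to 1, at 1.09 (95% interval 0.981 to 1.22) and 1.13 (95% interval 0.992 to 1.28). The stricter nucleus filter gave 1.44 (95% interval 1.19 to 1.73) in pericytes and smooth muscle. In endothelial cells, keeping predicted doublets gave 1.15 (95% interval 1.04 to 1.27), and thinning to 2000 UMIs gave 1.2454 (95% interval 1.03 to 1.51). All of these intervals lay above 1. Microglia, the resident macrophages of the brain, stood at 652, 589, 811 and 1773 CPM. Their Ex13del value was above the other 3 with no overlap of the intervals, and its ratio to the WT value was 2.19 (95% interval 1.93 to 2.49). Oligodendrocyte precursors stood at 201, 148, 196 and 477 CPM, a ratio of 2.43 (95% interval 1.97 to 3.02). Astrocytes stood at 272, 251, 282 and 412 CPM, with a ratio of 1.46 (95% interval 1.28 to 1.67). Oligodendrocytes stood at 152, 168, 175 and 271 CPM, with a ratio of 1.55 (95% interval 1.29 to 1.88). In all 4 of these glial classes the Ex13del interval lay above those of the other 3 libraries. Vascular leptomeningeal fibroblasts, with only 33 to 62 nuclei per library, went from 456 CPM in sleep deprivation to 1008 CPM with the WT vector.

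Excitatory neurons stood at 131, 111, 122 and 162 CPM. Inhibitory neurons stood at 111, 93.1, 101 and 120.0 CPM. Striatal projection neurons stood at 64.5, 52.2, 57.1 and 67.7 CPM, the lowest of all classes in each library. The order of the 4 libraries was the same in these 3 classes, with Ex13del highest and sleep deprivation lowest, although the Ex13del and ad lib sleep intervals of inhibitory and of striatal projection neurons overlapped. The Ex13del over WT ratio was 1.33 (95% interval 1.27 to 1.39) in excitatory, 1.18 (95% interval 1.06 to 1.32) in inhibitory and 1.18 (95% interval 0.928 to 1.52) in striatal projection neurons, and only the last interval included 1. Median depth of excitatory nuclei differed between libraries, at 7347, 13728, 9071 and 9826 UMIs, and its part in these levels was not tested beyond the thinning to an equal depth.

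**Figure D1:**
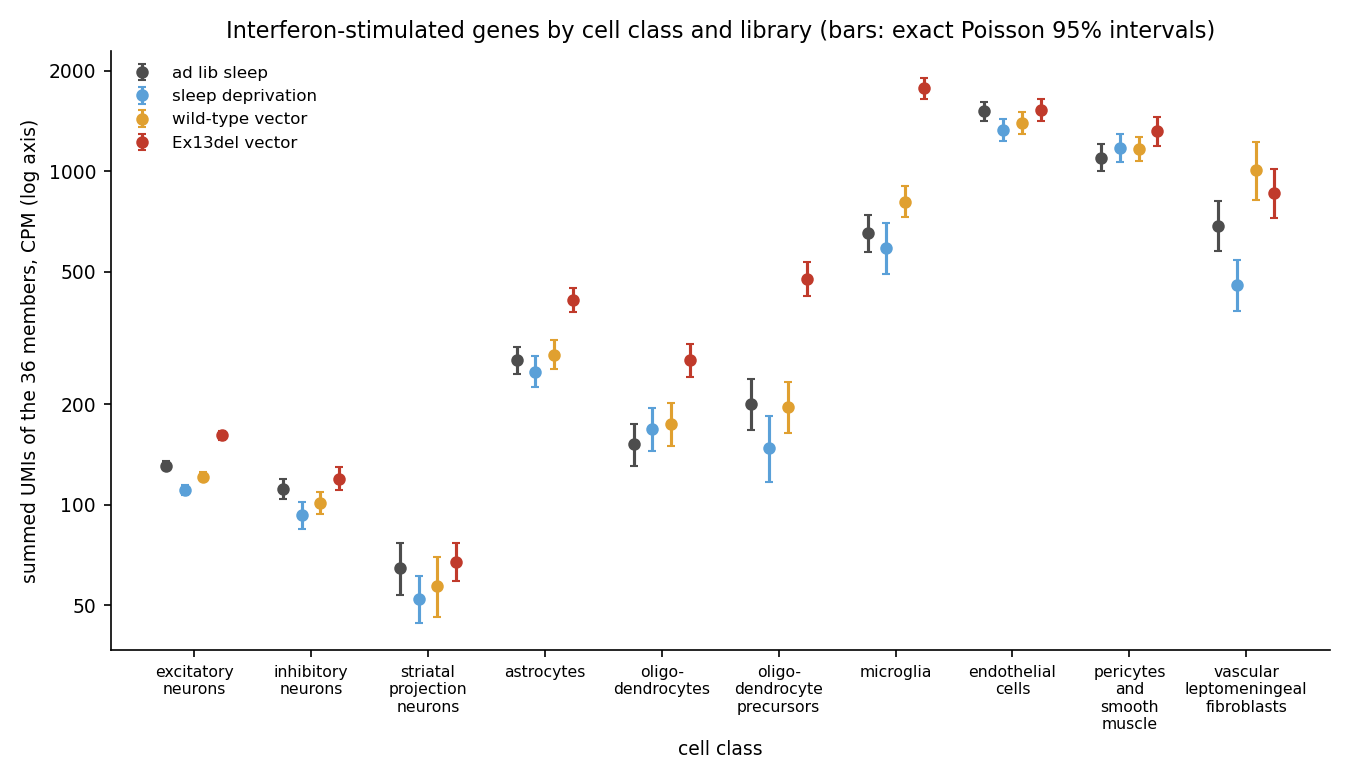
Summed level of the 36 members in CPM (log axis) for 10 cell classes, with 1 point per library and exact Poisson 95% intervals. The Ex13del point stands above the other 3 in microglia (1773 CPM), oligodendrocyte precursors, astrocytes, oligodendrocytes and excitatory neurons (162 CPM), and lies among them in fibroblasts.

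In excitatory neurons the Ex13del and WT vectors were compared first, as the design sets the SIK3 forms side by side. Of 22 members measured, 8 were higher with Ex13del and 0 lower, against 4.19% of 16386 genes measured that were higher. The median ratio was 1.28 over these members and 1.04 over all measured genes. A gene can be measured through its level in the Ex13del library alone, so the count was repeated with members that had 50 UMIs in the uninjected libraries, where 7 of 20 were higher (4.14% of all genes). Genes with few UMIs pass a fold more often. Among genes with 50 to 500 UMIs, 9.91% were higher, against 7 of the 18 members in that range. Without clusters drawn mostly from 1 library 5 of 19 members were higher (2.41% of all genes), and without the 1% of nuclei with most member UMIs per UMI 5 of 22 (3.88%). Parp14 and Xaf1 dropped under the threshold in both cases, and Ifit1 in the second. Bst2 was no longer measured in the first case, nor with the minimum set in the uninjected libraries.

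The transcription factors of the pathway had small ratios. Stat2, the partner of IRF9, stood at 19.8, 20.3, 19.8 and 25.2 CPM, a ratio of 1.28 (95% interval 1.14 to 1.43). Irf9 stood at 7.87, 7.77, 9.81 and 11.3 CPM, a ratio of 1.15 (95% interval 0.969 to 1.36). Irf1, a transcription factor that interferon gamma induces, stood at 6.88, 3.71, 4.37 and 4.32 CPM, a ratio of 0.989 (95% interval 0.756 to 1.29). None of these 3 reached 1.5, and Irf1 was as low in the Ex13del as in the WT library. Irf7, which amplifies the type I interferon response, had too few UMIs to be measured, with 6, 12, 9 and 27 UMIs. Usp18, which removes ISG15 from proteins and damps receptor signalling, had 13, 9, 4 and 29 UMIs, and its ratio of 8.6 (95% interval 3.02 to 33.7) carried a wide interval.

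ISG15 is a ubiquitin-like protein attached to other proteins after interferon exposure. Isg15 stood at 1.7, 2.05, 1.39 and 3.21 CPM, a ratio of 2.31 (95% interval 1.56 to 3.48). Herc6, which in mice is the main ligase for ISG15, stood at 38.4, 30.2, 35.9 and 41.7 CPM, a ratio of 1.16 (95% interval 1.06 to 1.27). Herc6 therefore lay near its ad lib sleep level, while Isg15 was the highest of the 4 in the Ex13del library. Rnf213, a giant ubiquitin ligase with antimicrobial activity, stood at 11.8, 8.04, 9.77 and 17.9 CPM, a ratio of 1.83 (95% interval 1.57 to 2.13). Rnf213 was the member called higher with the most UMIs, and its Ex13del interval lay clear of the other 3 libraries.

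Parp14, Parp9 and Dtx3l act in ADP-ribosylation. Parp14 stood at 0.932, 0.797, 1.21 and 1.85 CPM and just passed the threshold with a ratio of 1.53 (95% interval 0.959 to 2.44), whose interval included 1. Dtx3l, the ligase partner of PARP9, stood at 1.32, 1.32, 0.728 and 1.6 CPM, a ratio of 2.2 (95% interval 1.26 to 3.94). Parp9, which overlaps Dtx3l in the genome, stood at 4.37, 5.1, 4.61 and 4.69 CPM, a ratio of 1.02 (95% interval 0.785 to 1.32). Dtx3l reached its ratio through a low WT value, as its Ex13del level was close to both uninjected libraries. Whether counting used the strand is not given in the sources used here, so reads of these overlapping genes may be shared.

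The sensors of double-stranded RNA had unequal ratios. Eif2ak2 encodes PKR, which stops translation when it binds double-stranded RNA, and it stood at 3.66, 2.12, 2.15 and 3.91 CPM, a ratio of 1.82 (95% interval 1.31 to 2.55). Its Ex13del level was close to that of ad lib sleep, and the WT and sleep deprivation levels were the low ones. Ifih1 (MDA5) stood at 2.19, 1.32, 2.32 and 2.63 CPM and Ddx58 (RIG-I) at 4.43, 4.06, 4.19 and 4.85 CPM. Neither sensor reached 1.5, with ratios of 1.13 (95% interval 0.792 to 1.62) and 1.16 (95% interval 0.89 to 1.5). Zbp1, a sensor of Z-form nucleic acid, had 0 UMIs in excitatory neurons of all 4 libraries, which allows up to 0.123 CPM in the Ex13del library.

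IFIT proteins bind foreign RNA. Ifit1 stood at 2.15, 1.87, 1.73 and 2.75 CPM, a ratio of 1.59 (95% interval 1.09 to 2.34). Ifit2 stood at 2.19, 1.77, 2.11 and 1.56 CPM, a ratio of 0.739 (95% interval 0.48 to 1.13), and Ifit3 stood at 1.12, 0.659, 0.97 and 1.4 CPM, a ratio of 1.44 (95% interval 0.848 to 2.47). Of these 3 neighbours on chromosome 19, only Ifit1 had an interval above 1, and the intervals of Ifit2 and Ifit3 included 1. The level of Ifit2 was lowest in the Ex13del library. Bst2 (tetherin), which holds budding viruses at the cell surface, stood at 0.932, 0.555, 0.554 and 1.73 CPM, a ratio of 3.11 (95% interval 1.71 to 5.93). Xaf1, a promoter of cell death, stood at 2.44, 3.09, 2.11 and 3.45 CPM, a ratio of 1.63 (95% interval 1.16 to 2.31). Bst2 had the largest ratio among measured members, on 16 and 42 UMIs in the WT and Ex13del libraries. It thus reached the UMI minimum through its Ex13del level. With the minimum set in the uninjected libraries, and in nuclei with 0 vector UMIs, it was not measured.

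The other measured members stayed under 1.5. Ifi27 stood at 6.49, 5.86, 6.03 and 8.06 CPM, a ratio of 1.34 (95% interval 1.08 to 1.65). Cmpk2, a mitochondrial nucleotide kinase, stood at 5.11, 5.06, 4.78 and 5.55 CPM, a ratio of 1.16 (95% interval 0.909 to 1.48). Oas2, which makes the activator of RNase L, stood at 0.932, 0.312, 0.832 and 1.07 CPM, a ratio of 1.29 (95% interval 0.709 to 2.34). The Ifi27 interval lay above 1, and those of Cmpk2 and Oas2 included 1. Igtp and Irgm1 are immunity-related GTPases, and their levels were 0.90, 0.52, 1.07 and 0.863 CPM and 1.86, 1.42, 1.8 and 2.01 CPM. Neither GTPase differed beyond counting error, with ratios of 0.804 (95% interval 0.439 to 1.44) and 1.12 (95% interval 0.741 to 1.68).

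Another 14 members had under 50 UMIs in the AAV libraries together. Rsad2 (viperin), which makes a chain-terminating nucleotide, had 7, 5, 3 and 25 UMIs. Gbp3, a guanylate-binding protein, had 7, 4, 9 and 36 UMIs, and Oasl2 had 4, 3, 4 and 19. Ifi44 had 3, 7, 0 and 22 UMIs, at least 8.70-fold higher with Ex13del than the level that 3 counts in the WT library would give. In these 4 genes most UMIs of the class came from the Ex13del library, and because their Ex13del level made up the count they support no statement about the set. Trim30a had 10, 5, 12 and 20 UMIs, Gbp7 had 15, 11, 22 and 27 and Ifi35 had 30, 28, 19 and 24. Sp100 had 10, 9, 8 and 12 and Gbp2 7, 1, 5 and 7, and Oas1a and Oas3 had at most 2 UMIs in any library. The Ex13del over WT ratio was 1.98 (95% interval 0.921 to 4.44) for Trim30a, 1.78 (95% interval 0.669 to 5.02) for Sp100 and 1.66 (95% interval 0.454 to 6.64) for Gbp2, with every interval including 1. Irf7, Usp18 and Zbp1, described above, complete the 14.

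**Figure D2:**
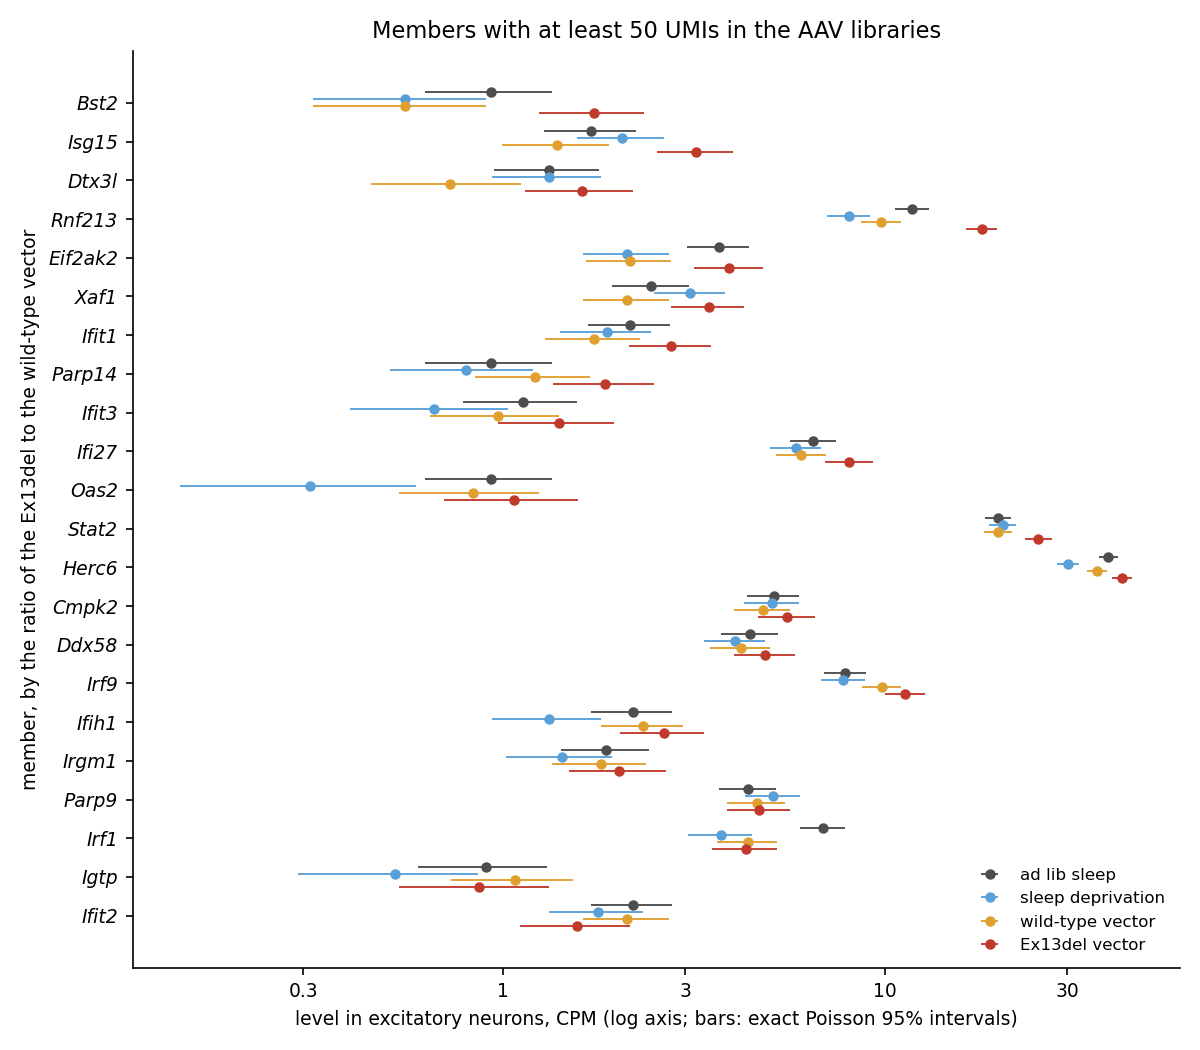
Level in excitatory neurons in CPM (log axis) of the 22 measured members, with 1 point per library and exact Poisson 95% intervals, ordered by the Ex13del over WT ratio. Bst2 (3.11) and Isg15 are at the top, Rnf213 stands apart at 17.9 CPM with Ex13del, and Ifit2 is at the bottom. Bst2 reached the UMI minimum through its Ex13del level.

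Promoters of the members were searched for the ISRE core GAAANNGAAA and for the gamma-activated site TTCNNNGAA, on both strands of the 250 bases before the RefSeq start sites (GRCm38.p6). Entries were found for 30 members with 36 promoters. At least 1 ISRE match was present in 14 of these 30 genes (46.7%) and in 3.46% of all 27025 genes. A gamma-activated site was present in 7 of 30 members (23.3%) and in 8.13% of all genes. Of the 7 members with an entry that were higher in excitatory neurons, 3 held an ISRE match: Bst2, Ifit1 and Isg15. The 3 of 7 are close to the 14 of 30 among all members with an entry, so no link between match and level is shown. Their windows are printed because these members were called higher and hold a match. Gbp3 and Rsad2 are added, chosen after their values were seen, because their counts came mostly from the Ex13del library. Each window runs 5′ to 3′ on the strand of the gene, and capitals mark the match on either strand, merged where matches overlap. The windows lie at chr8:71537567-71537646 (minus strand), chr19:34640754-34640833 (plus strand), chr4:156200855-156200934 (minus strand), chr3:142559955-142560034 (plus strand) and chr12:26456543-26456622 (minus strand).

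Bst2: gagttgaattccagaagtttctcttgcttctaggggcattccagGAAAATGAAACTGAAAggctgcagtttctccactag
Ifit1: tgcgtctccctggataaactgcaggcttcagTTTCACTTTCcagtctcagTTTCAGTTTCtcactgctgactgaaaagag
Isg15: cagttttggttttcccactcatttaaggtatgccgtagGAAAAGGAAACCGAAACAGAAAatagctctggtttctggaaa
Gbp3: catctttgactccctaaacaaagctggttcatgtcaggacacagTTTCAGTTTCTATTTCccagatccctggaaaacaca
Rsad2: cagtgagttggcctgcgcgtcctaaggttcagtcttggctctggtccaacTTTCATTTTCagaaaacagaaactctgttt

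Isg15 held 3 overlapping matches, the nearest ending 56 bases before the start site. Bst2, Ifit1 and Gbp3 held 2 each and Rsad2 held 1. Other members with a match were Gbp2, Gbp7, Ifit3, Igtp, Irgm1, Oas1a, Oas3, Stat2 and Trim30a. Igtp and Irgm1 have a match and their levels did not differ between the vectors beyond counting error, whereas Rnf213, Dtx3l, Xaf1 and Eif2ak2 were higher and had no ISRE match in the bases searched before their start sites. Eif2ak2 held a gamma-activated site match there. A match is a string of letters and not a shown binding site.

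The AAV libraries hold infected and uninfected nuclei side by side, and the vector transcript was used to set them apart. In the WT and Ex13del libraries, 1 to 2 vector UMIs were found in 17.1% and 20.6% of excitatory nuclei. The shares were 17% and 16.7% of astrocytes and 16.9% and 21.7% of microglia, which should not use the hSyn promoter. Those shares were alike although the glial nuclei were shallower, so 1 to 2 UMIs were read as background. Nuclei with 3 or more, called vector-rich, made up 3.26% and 4.67% of excitatory nuclei, 0.654% and 0.748% of astrocytes, and 0.469% and 1.89% of microglia. Median depths in the Ex13del library were 9962 UMIs in vector-rich and 9399 in vector-free excitatory nuclei, and 2911 in all astrocytes.

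In the Ex13del library the members were much higher in vector-rich excitatory neurons. Nuclei with 0 vector UMIs stood at 142 CPM (95% interval 136 to 147, 1633 nuclei), and those with 1 to 2 at 144 CPM (95% interval 134 to 154, 451 nuclei). Nuclei with 3 to 9 stood at 428 CPM (95% interval 375 to 487, 49 nuclei), and those with 10 or more at 645 CPM (95% interval 584 to 709.6, 53 nuclei). The level did not differ between 0 and 1 to 2 vector UMIs beyond counting error, and it was several times as high from 3 on. In the WT library the corresponding values were 121 CPM (95% interval 117 to 126, 2223 nuclei), 118 CPM (95% interval 109 to 128, 479 nuclei), 149 CPM (95% interval 123 to 179, 68 nuclei) and 126 CPM (95% interval 90.0 to 172, 23 nuclei). The WT intervals at 3 to 9 and at 10 or more both overlapped the interval at 0. The vector-rich over vector-free ratio of the sum was 3.85 (95% interval 3.53 to 4.2) with Ex13del and 1.17 (95% interval 0.993 to 1.38) with WT. All these nuclei of a comparison share 1 library and are not replicates.

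**Figure D3:**
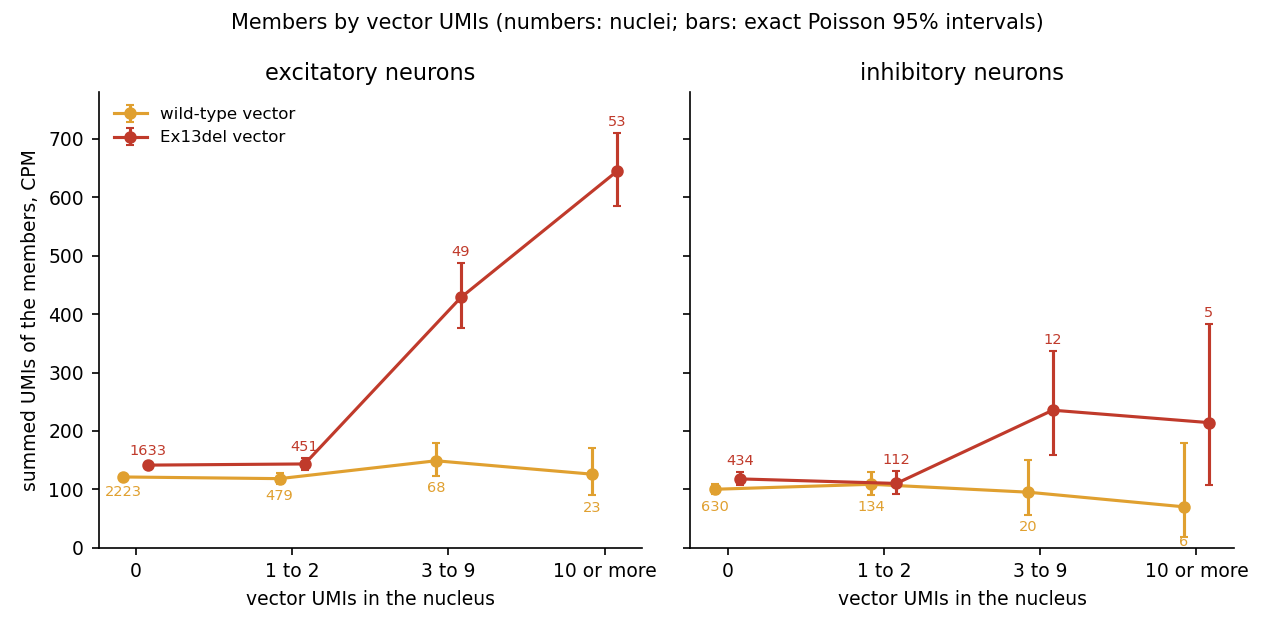
Summed level of the members in CPM by the number of vector UMIs in the nucleus, for excitatory and inhibitory neurons of both AAV libraries, with exact Poisson 95% intervals and the number of nuclei at each point. In excitatory neurons the Ex13del line goes from 142 to 645 CPM, and the WT line stays between 118 and 149 CPM.

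Of 14 members measured in this contrast in the Ex13del library, 12 were higher and 1 lower in vector-rich nuclei, against 25.9% of all genes higher. The share of all genes lower is not given here. The 1 lower call, Cmpk2 on 1 UMI in vector-rich nuclei, is therefore not set against a background. With the WT vector 5 of 12 were higher and 0 lower, against 11.0%. The 5 were Irf9, Ifi27, Ifih1, Ddx58 and Xaf1, and each of their intervals included 1. With members that had 50 UMIs in the uninjected libraries, 17 of 20 were higher in the Ex13del library, against 29.1% of all genes under that rule.

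Among the transducers in the Ex13del library, Stat2 stood at 43.6 CPM in vector-rich and 26 CPM in vector-free nuclei, a ratio of 1.68 (95% interval 1.23 to 2.24). Irf9 stood at 22.6 CPM in vector-rich and 10.3 CPM in vector-free nuclei, a ratio of 2.2 (95% interval 1.41 to 3.31). Irf1 did not differ beyond counting error, at a ratio of 0.936 (95% interval 0.296 to 2.28). Stat2 and Irf9 had the smallest ratios among the 12. The WT library gave ratios of 1.13 (95% interval 0.726 to 1.7) for Stat2 and 1.51 (95% interval 0.849 to 2.51) for Irf9.

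Isg15 had the largest ratio of the 14. It stood at 20.1 CPM in vector-rich and 2.24 CPM in vector-free nuclei, a ratio of 8.98 (95% interval 5.17 to 15.3). Isg15 (24 and 39 UMIs, vector-rich first), Ifih1 (19 and 34) and Ifit1 (16 and 37) reached the UMI minimum through their vector-rich level. Rnf213 stood at 76.2 CPM in vector-rich and 14.8 CPM in vector-free nuclei, a ratio of 5.15 (95% interval 4.01 to 6.56). Herc6 stood at 109 CPM in vector-rich and 36.5 CPM in vector-free nuclei, a ratio of 2.98 (95% interval 2.45 to 3.61). In the WT library Rnf213 had a ratio of 1.26 (95% interval 0.662 to 2.21) and Herc6 of 0.728 (95% interval 0.484 to 1.05), so neither was called there. Parp9 stood at 18.4 CPM in vector-rich and 3.96 CPM in vector-free nuclei with Ex13del, a ratio of 4.65 (95% interval 2.74 to 7.62).

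The RNA sensors were also higher in vector-rich nuclei of the Ex13del library. Ifih1 stood at 15.9 CPM in vector-rich and 1.95 CPM in vector-free nuclei, a ratio of 8.16 (95% interval 4.4 to 14.7). Ddx58 stood at 16.8 CPM in vector-rich and 4.19 CPM in vector-free nuclei, a ratio of 4.0 (95% interval 2.31 to 6.63). Eif2ak2 stood at 15.9 CPM in vector-rich and 3.1 CPM in vector-free nuclei, a ratio of 5.14 (95% interval 2.88 to 8.81). Ifih1 and Ddx58, which did not reach 1.5 between the whole classes, thus passed it here. Ifit1 stood at 13.4 CPM in vector-rich and 2.12 CPM in vector-free nuclei, a ratio of 6.31 (95% interval 3.28 to 11.6), and it had 0 UMIs in the 91 vector-rich nuclei of the WT library. Xaf1 and Ifi27 had ratios of 4.67 (95% interval 2.48 to 8.34) and 2.79 (95% interval 1.74 to 4.3).

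Cmpk2 went the other way. It had 1 UMI in vector-rich and 104 in vector-free nuclei, a ratio of 0.14 (95% interval 0.00352 to 0.799). Rsad2, its neighbour on chromosome 12 (chr12:26442746-26456452 on the minus strand, against chr12:26469204-26479837 on the plus strand, mm10), had 17 UMIs in vector-rich and 2 in vector-free nuclei, a ratio of 124 (95% interval 29.5 to 1107). The pair, which lies head to head, therefore differed in opposite directions. Other members under 50 UMIs in the Ex13del contrast included Usp18 (18 and 8 UMIs), Gbp3 (20 and 9), Ifi44 (17 and 3), Irf7 (14 and 9) and Oasl2 (12 and 5), each with vector-rich UMIs first. In each of these 5 genes the 102 vector-rich nuclei held more UMIs than the 1633 vector-free nuclei. In the WT library Irf7 had 3 UMIs in vector-rich and 5 in vector-free nuclei, a ratio of 12.3 (95% interval 1.9 to 63), and Gbp7 had 4 and 15, a ratio of 5.45 (95% interval 1.32 to 17.1). The intervals of Irf7 and Gbp7 thus lay above 1 with the WT vector too, on few UMIs. In that library Usp18, Gbp3 and Oasl2 had 0 UMIs in vector-rich and 4, 8 and 4 in vector-free nuclei. Their ratio intervals reached up to 30.9, 12 and 30.9 and included 1, so the 0 counts are not read as a difference between the vectors.

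**Figure D4:**
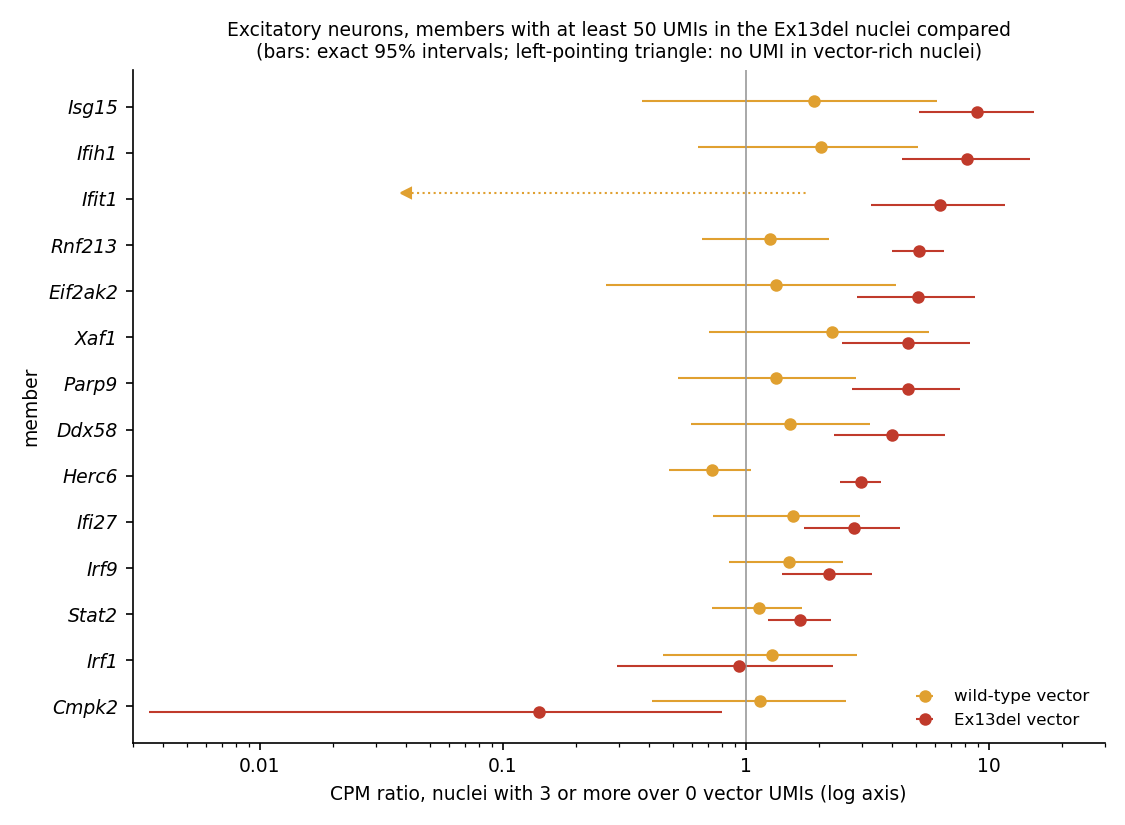
CPM ratio of vector-rich over vector-free excitatory neurons (log axis) for the 14 members measured in the Ex13del library, with exact 95% intervals for both AAV libraries. The Ex13del points of 12 members lie above 1.5, up to 8.98 for Isg15, Cmpk2 lies at 0.14, and the 14 WT intervals all include 1. Isg15, Ifih1 and Ifit1 reached the UMI minimum through their vector-rich level.

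Nuclei with 10 or more member UMIs numbered 4, 7, 4 and 32 of the excitatory neurons, and 19 of the 32 in the Ex13del library were vector-rich. All 5 nuclei with 20 or more were vector-rich nuclei of the Ex13del library, and the highest held 42 member UMIs, against at most 13 in the other libraries. Without the 5 vector-rich nuclei with most member UMIs, the vector-rich over vector-free ratio of the sum was 3.15, and 9 of 12 members were higher and 2 lower, against 26.2% of all genes higher. Stat2 was then under the threshold, with a ratio of 1.35. The share of all genes lower in that setting is not given here.

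Most vector-rich nuclei of the Ex13del library lay in 1 cluster. Cluster 24, with 148 excitatory nuclei led by the vector feature, drew 80.4% of its nuclei from the Ex13del library and held 70 of that library's 102 vector-rich excitatory nuclei. Within it, Ex13del nuclei stood at 241 CPM (95% interval 184 to 311, 23 nuclei) with 0 vector UMIs and at 560.0 CPM (95% interval 510.3 to 613, 70 nuclei) with 3 or more. Outside it, they stood at 140.1 CPM (95% interval 135 to 146, 1610 nuclei) and 511 CPM (95% interval 440.3 to 591, 32 nuclei). The vector-rich intervals in and outside the cluster overlapped, and outside the clusters drawn mostly from 1 library 9 of 11 measured members were higher in vector-rich nuclei, against 22.6% of all genes. Irf9 was then under the threshold, with a ratio of 1.36. Markers of other cells moved unevenly with the vector: microglial markers summed to 193 CPM in vector-rich and 163 CPM in vector-free Ex13del excitatory nuclei, endothelial markers to 61.1 and 39.7 CPM, astrocyte markers to 138 and 168 CPM, and T cell markers to 36 and 19.7 CPM. Their part in the result was not tested.

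The difference between the AAV libraries was smaller in excitatory nuclei with no vector UMI. The ratio of the sum was 1.17 (95% interval 1.1 to 1.23) there, against 1.33 over all excitatory nuclei, and it was 3.83 (95% interval 3.21 to 4.59) between the vector-rich nuclei of the libraries. These vector-rich nuclei were not matched for vector UMIs. In the Ex13del library 53 of 102 held 10 or more, and in the WT library 23 of 91. Of 17 members measured in vector-free nuclei, 3 were higher (Isg15, Rnf213 and Eif2ak2) and 0 lower, against 2.07% of all genes. Rnf213 stood at 14.8 CPM with Ex13del and 9.33 CPM with WT in such nuclei, a ratio of 1.59 (95% interval 1.32 to 1.91). A nucleus with 0 vector UMIs may still hold the vector below the depth of detection.

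Inhibitory neurons had fewer vector-rich nuclei, 26 with WT and 17 with Ex13del. The summed level in the Ex13del library was 118 CPM (95% interval 108 to 129, 434 nuclei) at 0 vector UMIs and 229 CPM (95% interval 165 to 311, 17 nuclei) at 3 or more, a ratio of 1.95 (95% interval 1.38 to 2.68). In the WT library it was 100.2 CPM (95% interval 91.7 to 109, 630 nuclei) and 89.5 CPM (95% interval 56.1 to 135, 26 nuclei), a ratio of 0.892 (95% interval 0.554 to 1.37). In the Ex13del library 1 of the 17 nuclei held 13 of the 41 member UMIs. Without it the level was 169.6 CPM (95% interval 113 to 245) and the ratio 1.44 (95% interval 0.945 to 2.1), an interval that included 1. Between the whole inhibitory classes, 1 of 9 measured members was higher with Ex13del and 0 lower, against 2.06% of all genes. That member was Ddx58, which stood at 3.25, 4.57, 3.12 and 6.87 CPM, a ratio of 2.2 (95% interval 1.2451 to 4.0). Ddx58 had 37 UMIs with Ex13del and 20 with WT, so it reached the UMI minimum through its Ex13del level. It had 23 UMIs in each uninjected library and fell short of the minimum when set there. The count of members higher in this class is therefore not read as support. Stat2 stood at 22.7, 18.5, 20.3 and 24.3 CPM and Rnf213 at 12.4, 5.96, 9.36 and 12.6 CPM, and their ratios of 1.2 (95% interval 0.934 to 1.54) and 1.35 (95% interval 0.939 to 1.94) had intervals that included 1. Ifit2, Irf9, Herc6 and Ifi27 had ratios from 0.769 to 1.32. In striatal projection neurons only Stat2 was measured, with 13.9, 11.5, 16.6 and 14.9 CPM.

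Microglia, in which the hSyn promoter should not be active, had the summed ratio given above, which uses every member. All 7 measured members were higher with Ex13del and 0 lower, against 7.16% of 4344 genes measured. This count cannot be read as support, since most of these members reached 50 UMIs through the Ex13del library, and none had 50 UMIs in microglia of the uninjected libraries. Fewer than 100 microglia were kept in sleep deprivation (87), so the members named here were chosen after their values were seen. Over all 36 members, 32 were above the WT level and 4 below it. Some of these rest on few UMIs, such as Oas3 with 1 against 0 and Zbp1 with 2 against 1. Gbp2, Gbp7 and Igtp, counted as below, had equal UMIs in both AAV libraries. The share of all genes above the WT level is not given here, so this count too is not read as support.

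Rnf213 stood at 41.9, 35.7, 73.5 and 189 CPM, a ratio of 2.57 (95% interval 1.69 to 3.99). Parp14 stood at 39.3, 26.8, 78.1 and 184 CPM, a ratio of 2.36 (95% interval 1.56 to 3.63). Eif2ak2 stood at 47.2, 22.3, 41.4 and 118 CPM, a ratio of 2.86 (95% interval 1.65 to 5.2). In these 3 genes the Ex13del interval lay above the other 3 libraries. Sp100, a nuclear body protein with antiviral function, stood at 18.3, 22.3, 25.3 and 100.2 CPM, a ratio of 3.96 (95% interval 2.01 to 8.51). Trim30a stood at 78.6, 84.9, 117 and 187 CPM, a ratio of 1.59 (95% interval 1.11 to 2.31). Herc6 stood at 52.4, 35.7, 64.3 and 107 CPM, a ratio of 1.66 (95% interval 1.02 to 2.76). Sp100 had the largest ratio of the measured members, and the Trim30a and Herc6 ratios had intervals that began close to 1. Parp9 stood at 44.5, 58.1, 55.2 and 86.5 CPM, and its ratio of 1.57 (95% interval 0.917 to 2.73) had an interval that included 1.

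Among members with fewer UMIs in microglia, Stat2 had 6, 4, 9 and 40 UMIs, a ratio of 4.4 (95% interval 2.1 to 10.3). Ifit3 had 1, 0, 3 and 17 UMIs, Oas2 had 0, 0, 3 and 17 and Usp18 had 1, 2, 4 and 16. Oas1a had 0, 0, 0 and 11 UMIs and was at least 3.63-fold higher with Ex13del than the level that 3 counts in the WT library would give. Most of the UMIs of each of these 5 genes lay in the Ex13del library. Irf9 had 17, 7, 19 and 21 UMIs, a ratio of 1.09 (95% interval 0.56 to 2.15), and Ifi27 had 20, 8, 14 and 12, a ratio of 0.849 (95% interval 0.359 to 1.98). Irf9 and Ifi27 thus did not differ beyond counting error.

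Markers of T cells moved with this result. The 7 T cell markers summed to 39.3, 4.47, 13.8 and 207 CPM in the microglial class, and all 7 were above the WT level with Ex13del, where none was at 0. The 8 microglial markers summed to 6555, 7181, 6361 and 6189.6 CPM and the 5 border macrophage markers to 136, 134, 163 and 159 CPM, without such a difference. In the Ex13del library 18 of 212 microglia held a T cell marker UMI, in the WT library 4 of 213. Without those nuclei the members stood at 1738 CPM with Ex13del and 784 CPM with WT, a ratio of 2.22, against 2.19 with them, and all 6 members still measured were higher (6.68% of all genes), a count with the same limit of the UMI minimum. In the Ex13del library 18 microglia held 10 or more member UMIs, against 3 with WT, and the 5 highest nuclei held 22% of the member UMIs. Ex13del microglia with 0 vector UMIs stood at 1889 CPM and those with 1 to 2 at 1558 CPM.

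**Figure D5:**
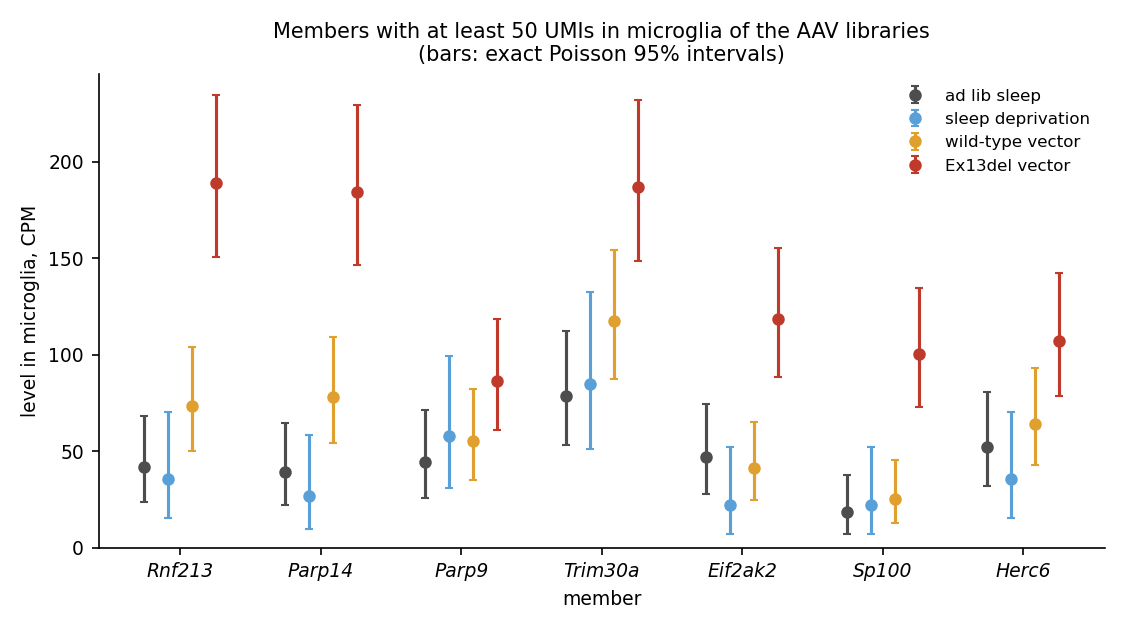
Level in microglia in CPM of the 7 measured members, with 1 point per library and exact Poisson 95% intervals. The Ex13del point is the highest for every member shown, from 86.5 CPM for Parp9 to 189 CPM for Rnf213.

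Astrocytes had 2 of 7 measured members higher with Ex13del and 0 lower, against 4.17% of all genes. Rnf213 stood at 46.8, 48.7, 32.9 and 63.1 CPM, a ratio of 1.92 (95% interval 1.32 to 2.82). Ddx58 stood at 15, 11.5, 17.5 and 28.1 CPM, a ratio of 1.6 (95% interval 0.933 to 2.8). The WT level of Rnf213 was under that of the uninjected libraries. Herc6, Stat2, Ifi27 and Eif2ak2 had ratios from 0.929 to 1.16, with levels of 29.5, 42.3, 48.3 and 44.8 CPM for Herc6 and 22, 19.4, 25.6 and 25.8 CPM for Eif2ak2. In the Ex13del library 1 astrocyte held 34 of the 542 member UMIs.

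Oligodendrocytes had 2 of 4 measured members higher and 0 lower, against 3.78% of all genes. Rnf213 stood at 16, 18.7, 15.5 and 33.1 CPM, a ratio of 2.13 (95% interval 1.16 to 4.11), and Xaf1 at 21.6, 9.36, 14.6 and 32.2 CPM, a ratio of 2.21 (95% interval 1.18 to 4.35). Ifi27 stood at 32, 49.6, 35.9 and 44.8 CPM and Stat2 at 23.2, 32.8, 27.2 and 31.3 CPM, with ratios of 1.2463 (95% interval 0.799 to 1.96) and 1.15 (95% interval 0.681 to 1.97). With members that had 50 UMIs in the uninjected libraries of the class, 0 of 2 oligodendrocyte members (Stat2 and Ifi27, 4.02% of all genes) and 1 of 5 astrocyte members (Rnf213, 5.07%) were higher. Oligodendrocyte precursors had 2 measured members, both higher, against 6.03% of all genes. Both reached 50 UMIs only with the Ex13del library where they were high, and none had 50 in the uninjected libraries, so the count supports nothing. These 2, named after their values were seen, were Rnf213 at 32, 22.2, 29.1 and 73.9 CPM, a ratio of 2.54 (95% interval 1.45 to 4.6), and Ifi27 at 21.3, 11.1, 30.7 and 53.7 CPM, a ratio of 1.75 (95% interval 0.972 to 3.23). Rnf213 was thus highest in the Ex13del library in every glial class and in excitatory neurons. The precursor value rested partly on few nuclei, since the 5 highest of 147 Ex13del precursors held 34.5% of the member UMIs, and the ratio of the sum was 1.86 without the 5 highest of each library.

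Endothelial cells had 0 of 8 measured members higher with Ex13del and 1 lower, against 4.88% of all genes higher. The share of all genes lower in this class is not given here. Sp100 stood at 157, 215, 166 and 172 CPM, a ratio of 1.03 (95% interval 0.742 to 1.44). Rnf213 stood at 103, 79.2, 109 and 85.8 CPM, a ratio of 0.784 (95% interval 0.50 to 1.22). Oasl2 stood at 73.8, 90.6, 58.9 and 85.8 CPM, Herc6 at 68.4, 84.9, 61 and 71.9 CPM and Usp18 at 75.6, 49.1, 71.6 and 67.3 CPM. Members that had almost no UMIs in neurons, such as Usp18 and Oasl2, were therefore present in endothelium of every library. Irf9, the member called lower, stood at 66.6, 45.3, 90.5 and 51 CPM, a ratio of 0.564 (95% interval 0.321 to 0.964). In pericytes and smooth muscle Sp100 stood at 108, 137, 85.1 and 138 CPM and Rnf213 at 71.7, 79.3, 74.9 and 70.5 CPM, with ratios of 1.62 (95% interval 1.03 to 2.54) and 0.941 (95% interval 0.529 to 1.64).

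Sleep deprivation was set beside ad lib sleep to compare sleep loss with undisturbed sleep. In excitatory neurons 0 of 20 measured members were higher and 4 lower, against 2.53% of all genes higher and 7.81% lower. The median ratio was 0.886 over these members and 0.964 over all measured genes, and the ratio of the sum was 0.849 (95% interval 0.81 to 0.889). The members lower were Irf1, Eif2ak2, Ifit3 and Ifih1. Irf1 had a ratio of 0.54 (95% interval 0.424 to 0.684) and Eif2ak2 of 0.577 (95% interval 0.416 to 0.795). Ifih1 had a ratio of 0.603 (95% interval 0.394 to 0.91), and Ifit3 had one of 0.586 (95% interval 0.317 to 1.05) whose interval included 1. Rnf213 at 0.684 (95% interval 0.578 to 0.808) and Herc6 at 0.786 (95% interval 0.72 to 0.859) were under 1 without reaching the fold. Stat2 was nearly equal in the 2 libraries, with a ratio of 1.03 (95% interval 0.917 to 1.15).

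The WT vector was set beside the same ad lib sleep library, so this comparison shares its control with the sleep comparison and holds injection, virus and SIK3 at once. In excitatory neurons 0 of 21 measured members were higher and 3 lower, against 1.02% of all genes higher and 3.86% lower. The ratio of the sum was 0.928 (95% interval 0.886 to 0.971). The members lower were Irf1, with a ratio of 0.635 (95% interval 0.505 to 0.795), Dtx3l, with 0.552 (95% interval 0.31 to 0.957), and Eif2ak2, with 0.586 (95% interval 0.423 to 0.806). The summed level with the WT vector was thus under that of ad lib sleep in excitatory neurons. In microglia the same ratio was 1.24 (95% interval 1.05 to 1.47).

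Other genes of the pathway were read from lists of ligands, receptors, kinases, sensors, upstream factors and inhibitors. Of the 7 interferon genes, Ifna1, Ifna2 and Ifna4 had 0 UMIs over all kept nuclei, Ifnb1 and Ifne had 1 UMI each in the WT library, and Ifng had 1 in the Ex13del library. Ifnk had 18, 9, 10 and 7 UMIs. No interferon gene was therefore measured, and a transcript below the depth of these libraries was not detectable. Of 35 genes in these lists, 17 were measured in excitatory neurons of the AAV libraries, and 2 were higher with Ex13del and 0 lower, against the same 4.19%.

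The type I receptor chain Ifnar1 stood at 19.9, 18, 19.8 and 17.4 CPM and Ifnar2 at 16.8, 14, 13.3 and 14.3 CPM. The kinases stood at 67.6, 80.02, 76.8 and 73.9 CPM for Jak1 and 23.1, 19.7, 24.6 and 25.8 CPM for Tyk2. With Ex13del over WT ratios of 0.879 (95% interval 0.773 to 0.999) and 1.08 (95% interval 0.93 to 1.2498) for the receptor chains and 0.963 (95% interval 0.905 to 1.03) and 1.05 (95% interval 0.938 to 1.17) for the kinases, none of these genes at the receiving end of the pathway reached 1.5. The 2 genes higher were Ticam1, the adaptor of the RNA sensor TLR3, at 1.41, 1.32, 0.658 and 1.6 CPM and Socs3, an inhibitor of cytokine signalling, at 1.77, 2.01, 1.42 and 2.55 CPM. Ticam1 reached its ratio of 2.44 (95% interval 1.37 to 4.46) through a low WT value, as its Ex13del level was close to both uninjected libraries. Tbk1, the kinase that activates IRF3, stood at 70.0, 59.3, 72.4 and 91.9 CPM, a ratio of 1.27 (95% interval 1.19 to 1.35).

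Antigen presentation by class I molecules is also under interferon control. In excitatory neurons H2-K1, a class I heavy chain, stood at 2.92, 1.46, 2.11 and 4.56 CPM, a ratio of 2.16 (95% interval 1.57 to 3.0). It was 1 of 5 measured genes of that list and the only 1 called higher (4.19% of all genes), and its sleep deprivation over ad lib sleep ratio was 0.498 (95% interval 0.337 to 0.725). In microglia 2 of 3 measured genes of the list were higher with Ex13del, against 7.16% of all genes. This count cannot be read as support, since both genes, H2-K1 and H2-D1, reached 50 UMIs through the Ex13del library. They had 23 and 22 UMIs with WT, and 103 and 65 with Ex13del. H2-K1 stood at 49.8, 40.2, 52.9 and 234 CPM, a ratio of 4.44 (95% interval 2.8 to 7.31). H2-D1 stood at 49.8, 17.9, 50.6 and 148 CPM, a ratio of 2.93 (95% interval 1.78 to 4.99). B2m, the light chain shared by both, stood at 89.1, 67, 124 and 168 CPM, a ratio of 1.36 (95% interval 0.943 to 1.97). The heavy chains thus had larger ratios than the light chain in the Ex13del microglia, and the difference between these ratios was not tested. Of the 35 genes in the other lists, 12 were measured in microglia, and 2 were higher and 0 lower, against the same 7.16%. These were Jak2 and Ifnar2, at 1.94 (95% interval 1.15 to 3.36) and 1.53 (95% interval 1.02 to 2.32). Jak2 had 23 UMIs with WT and 45 with Ex13del, so it reached 50 UMIs through its Ex13del level.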

How the data were processed

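Nuclei of 4 libraries were profiled with the 10x Chromium 3' assay, per the labels' protocols. The authors deposited 1 matrix of raw UMI counts for each library. The submitters' processing notes name Cell Ranger 6.1.2 and the mm10 build. Whether intronic reads or strand entered the counts is not given in the sources used here, and 9 members overlap another counted gene.

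Barcodes with at least 500 genes and under 5% mitochondrial UMIs passed. Doublets were removed by Scrublet score, taking the share predicted from 0.8% per 1000 barcodes, because its automatic threshold called 0 to 4 nuclei per library. The remaining 8242, 5302, 6352 and 5512 nuclei (order as in the report) were clustered with scanpy 1.11.5, with values centred within each library and without the members or the vector feature, and named from marker genes. The doublet treatment and the limits for naming clusters were set after the data were seen. UMIs were summed per class and library and scaled to CPM. Intervals are exact Poisson for levels and exact conditional (Clopper-Pearson) for ratios, at 95%. They cover counting error only, and with 1 library per group no test was run. The contrast code was tested on simulated data. TMM factors came from edgeR 4.0.16 and serve as an alternative scaling.

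The members and lists were chosen with earlier results of these data known. Members were described with all libraries where they had at least 50 UMIs in the AAV libraries (excitatory neurons) or over the 4 libraries (at most 6 members, classes with at least 100 nuclei in every library). Of the other pathway genes the rule named the 3 with most UMIs. Other genes named, including members with few UMIs, members in microglia, precursors and pericytes, and further pathway genes, were chosen after their values were seen. Gene names are those of the feature table, and promoter windows come from RefSeq (GRCm38.p6, the assembly also called mm10).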

Additional observations from a re-analysis of the deposited data

Results flagged for a closer look

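Nuclei left out of every class comparison also held the members, at a level above both uninjected libraries in the Ex13del library. In nuclei without a class name the summed level of the members was 205, 169.6, 232 and 398 CPM, in the order ad lib sleep, sleep deprivation, WT vector and Ex13del vector, over 842, 1612, 871 and 793 nuclei. In nuclei removed as doublets it was 158, 147, 168 and 272 CPM over 696, 297, 377 and 307 nuclei. In both kinds of nuclei the Ex13del interval lay above the intervals of the other 3 libraries. Groups of 1 library could not be searched for a library far from the rest of its group.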

How the results depend on the processing

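No paired analysis was possible because each group has 1 library. For the same reason no library could be left out within a group. Of 98 alternative values for the counts and summed ratios, 71 stayed within the stated limits of the value reported and 27 moved. Of 252 for single members, 229 stayed on their side of 1.5-fold, 20 crossed it and 3 changed direction. The cause of these moves was not tested, except that some alternatives test fewer genes or nuclei by construction.

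Members higher with Ex13del than with WT in excitatory neurons (8 of 22) were 16 of 32 at a minimum of 20 UMIs (7.02% of all genes), 5 of 15 at 100 (2.42%), and 1 of 5 with nuclei thinned to 2000 UMIs (3.30%). They were 3 of 17 in nuclei with 0 vector UMIs (2.07%), 4 of 19 in nuclei with under 3 (2.53%), 5 of 19 without clusters mostly of 1 library (2.41%), and 5 of 22 without the 1% of nuclei with most member UMIs per UMI (3.88%). With the minimum of 50 UMIs set in the uninjected libraries of the class, 0 members were measured in microglia and in precursors, so 0 were called, against 0 of 2 in oligodendrocytes and 1 of 5 in astrocytes. At a lower fold threshold, 1 member was higher in sleep deprivation than in ad lib sleep, and 1 with the WT vector than in ad lib sleep. At a minimum of 20 UMIs, 1 was higher with the WT vector than in ad lib sleep. Vector-rich against vector-free nuclei gave 22 of 25 higher at a minimum of 20 UMIs in the Ex13del library (29.4% of all genes). In the WT library the count was 9 of 19 at that minimum (13.6% of all genes), 2 of 11 with 4 lower at 10 or more vector UMIs (22.1%) and 2 of 9 against vector-free nuclei of matched depth (14.0%). These shares are of genes higher, and shares of genes lower are not given here. With 10 or more vector UMIs in the WT library, Irf9 went to 0.985, and Ifih1 and Ddx58 to 0.

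The Ex13del over WT ratio of the sum was 1.40 in excitatory neurons without the member with most UMIs and 1.17 with 0 vector UMIs. It was 1.27 in thinned astrocytes and 1.26 under the stricter nucleus filter (at least 1000 genes, under 1% mitochondrial UMIs), and 1.2454 in thinned endothelial cells. In precursors it was 1.86 without the 5 nuclei with most member UMIs, and in microglia 1.79 when thinned, 1.87 with predicted doublets kept and 2.67 under the stricter filter. Thinning left out 123 of 212 Ex13del and 131 of 213 WT microglia, so it describes the deeper nuclei. Depth limits single members, and 14 of 36 had under 50 UMIs in excitatory neurons of the AAV libraries. Without the vector-rich nucleus with most member UMIs, the inhibitory ratio was 1.44 in the Ex13del and 0.786 in the WT library. The uninjected-library minimum, leaving out single nuclei with most member UMIs, the limit of under 3 vector UMIs and the T cell markers were chosen after seeing the data. So were, for the summed ratios, the stricter filter, clustering without centring and 0 vector UMIs, and, for vector-rich against vector-free nuclei, leaving out clusters mostly of 1 library.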

Other observations

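Cmpk2 and Rsad2 lie next to each other on chromosome 12 and had opposite values in excitatory neurons of the Ex13del library. Rsad2 stood at 14.2 CPM in vector-rich and 0.115 CPM in vector-free nuclei, and Cmpk2 at 0.838 and 5.97 CPM. In the WT library Cmpk2 had a ratio of 1.15 (95% interval 0.411 to 2.58). The pair was picked after its values were seen.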
